A study of Mus musculus with 9 samples.

Results

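The cycling nuclei of the ischemic mouse kidney are 503 of the 14622 nuclei sequenced from 5 injured animals, and 27738 nuclei from 9 animals were sequenced in all. A nucleus was counted as cycling when its unique molecular identifier (UMI) counts for Mki67, Top2a, Cenpf, Cenpe, Anln, Kif11, Bub1 and Aurkb summed to 2 or more. The injured group comprised male mice of 11 to 19 weeks carrying Krt20T2A-CE; INTACTnuGFP/+ and given tamoxifen at 0.05 mg/g, in which both renal pedicles were clamped for 18 min (ischemia-reperfusion injury, IRI) and kidneys were taken on day 7 (2 mice) or day 28 (3 mice). The control group comprised male mice carrying Six2TGC; Rosa26rtTA ; pTRE-H2BeGFP and fed doxycycline, of which 3 had sham surgery and 1 had no surgery. GFP-positive nuclei were sorted from frozen tissue and their polyadenylated RNA was read with droplet 3′ libraries of either of 2 kit versions. Reporter line, drug and sorted population therefore differed together with injury between control and IRI mice, and only the comparison of day 7 with day 28 was free of that. The sort also removed doublets by light scatter, and its effect on nuclei with replicated DNA was not tested.

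A cell that re-enters the cycle first makes G1 cyclins, then the enzymes that copy DNA, and last the kinesins, kinetochore proteins and condensins that move and divide the chromosomes. Most adult tubule cells are quiescent. After ischemia, surviving proximal tubule (PT) cells lose part of their transporter programme, divide and refill the tubule, while some remain in an injured state marked by Havcr1 (the injury molecule KIM-1) and Vcam1 (an adhesion molecule).

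The members were chosen by measured values, the UMI counts of these 8 genes in each nucleus. The rule genes are proteins of the dividing chromosome and of the dividing cell. Mki67, the chromosome surface protein behind the Ki-67 stain, was detected in 61.0% of the 503 cycling nuclei. Cenpf, a kinetochore protein, was detected in 56.5%, and Anln, the actin-binding anillin of the cleavage furrow, in 51.5%. Top2a, the topoisomerase that untangles sister chromatids, was found in 46.7%, and the motors Cenpe and Kif11 in 41.2% and 36.6%. The checkpoint kinases Bub1 and Aurkb were seldom caught, in 13.7% and 4.37% of the cycling nuclei. These values describe the genes that chose the nuclei and test nothing.

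Genes that the rule did not use gave a check on the label. At day 7, UMIs of 80 other mitosis genes summed to 5725 CPM (UMI counts scaled to a common library total) in cycling nuclei and 547 CPM in the other nuclei of the same mice. The corresponding levels were 5236 and 425 CPM at day 28. Of the 503 cycling nuclei, 176 carried 4 or more of the rule genes, 245 carried 2 or 3, and 82 carried a single one. The same mitosis genes stood at 8905 CPM in the first set, 3200 CPM in the second and 1203 CPM in the third. Just inside the threshold lay 146 nuclei with a sum of exactly 2, and just outside it 815 nuclei with a sum of 1, whose mitosis genes stood at 765 CPM. Nuclei called from 1 gene thus lay closer to the nuclei outside the rule than to those with 4 or more genes. They were 68 of the 462 cycling nuclei at day 7 and 14 of the 41 at day 28.

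Cycling nuclei were common at day 7 and rare at day 28. They made up 6.45% of the nuclei of day 7 mouse 1 (248 of 3847; exact binomial 95% interval 5.69 to 7.27%) and 5.97% of those of day 7 mouse 2 (214 of 3587). At day 28 they made up 0.376% in mouse 1 (7 of 1863), 0.305% in mouse 2 (12 of 3928) and 1.57% in mouse 3 (22 of 1397). Both day 7 values lay above all 3 day 28 values, with means of 6.21% ± 0.34 (SD, n = 2) and 0.752% ± 0.713 (SD, n = 3). The difference of 5.45 percentage points had a two-sided exact permutation p = 0.1, the smallest that 10 splits of 5 mice allow. In control kidneys 32 of 13116 nuclei met the rule, at 0.334%, 0.472%, 0.11% and 0.124% in mice 1 to 4. Day 28 mice 1 and 2 lay inside this control range, whereas day 28 mouse 3 and both day 7 mice lay above it. Over all 5 IRI mice the mean exceeded the control mean by 2.67 percentage points (two-sided exact permutation p = 0.151, n = 5 and 4).

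**Figure D1:**
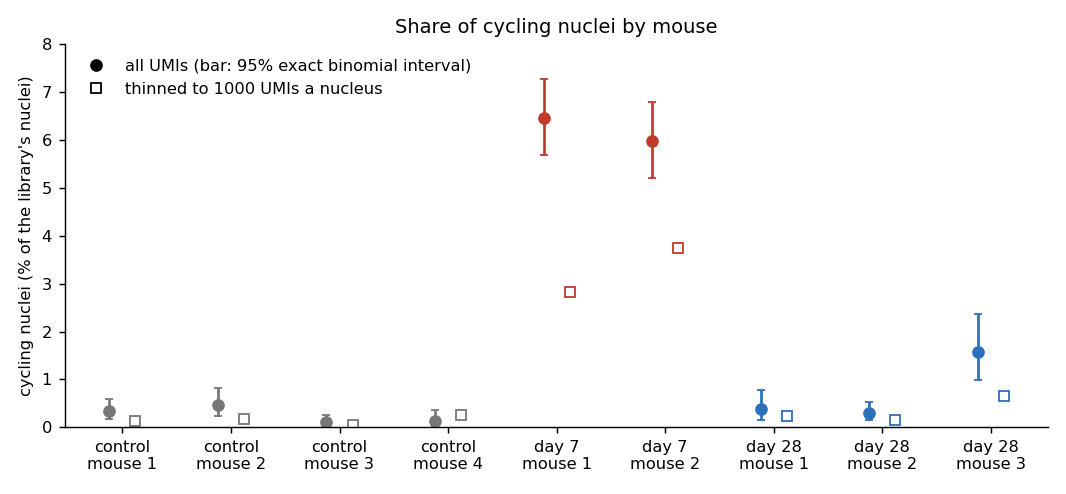
Percent of each mouse's nuclei that met the cycling rule, for 4 control, 2 day 7 and 3 day 28 mice, with all UMIs (filled, with 95% exact binomial intervals) and after thinning each nucleus to 1000 UMIs (open squares). Both day 7 mice lie above every other mouse on either measure, and day 28 mouse 3 is the highest of the remaining ones.

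Depth moved with the rule. Cycling nuclei held a median of 4469 UMIs against 3103 in the other nuclei of day 7 mouse 1, and 2958 against 1932 in day 7 mouse 2. After every nucleus was thinned to 1000 UMIs, which left out 653 and 599 shallower nuclei, the shares fell to 2.82% and 3.75%. The thinned day 28 shares were 0.246%, 0.159% and 0.658%, and the thinned control shares ran from 0.0483% to 0.251%. The difference between the days was 2.93 percentage points on the thinned scale, 1.86 times smaller than on all UMIs, and the 2 groups still did not overlap. Which of the day 7 mice had more cycling nuclei depended on the measure: mouse 1 with all UMIs, mouse 2 after thinning. Summed over all nuclei, the rule genes stood at 143 and 181 CPM at day 7, at 47.3, 15.7 and 32.5 CPM at day 28, and between 8.52 and 20.5 CPM in controls.

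Day 28 mouse 1 differed from the other injured mice in how its Mki67 counts were spread. It held 82 Mki67 UMIs, of which 5 lay in its cycling nuclei, whereas in day 7 mouse 1 the cycling nuclei held 431 of 472. Single Mki67 UMIs were found in 4.15% of its other nuclei, against 0.613% to 1.63% in the other 4 IRI mice. They were present in 4.75% of its other PT-like nuclei, 4.8% of distal-like and 2.67% of thick-limb-like nuclei. Top2a and Cenpf, by contrast, were found in 0.216% and 0.108% of its other nuclei. The sum of the rule genes in this mouse, 47.3 CPM, was therefore mostly Mki67 outside the 7 cycling nuclei, and the source of those UMIs was not tested.

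To ask which cells were cycling, nuclei were clustered without the cell cycle genes and clusters were named from kidney markers, since the files hold no cell annotation. Cycling nuclei were found in all the larger classes at day 7. Among PT-like nuclei, 7.51% of 2529 in mouse 1 and 5.61% of 2084 in mouse 2 were cycling. Among nuclei like the thick ascending limb (TAL), the salt-reabsorbing segment, the values were 6.16% of 211 and 6.78% of 177. With all UMIs the TAL-like share thus lay inside the range of the 2 PT-like values. After thinning to 1000 UMIs it lay above them, at 4.17% and 4.03% against 3.09% and 3.38% in PT-like nuclei. Median depth was 3501 and 1967.5 UMIs in PT-like and 2274 and 2330 in TAL-like nuclei. The thinned TAL-like shares rest on 1 random draw over 168 and 149 nuclei. No interval was computed for them, so this order is a description only. With all UMIs, the exact binomial intervals of the named classes overlapped within each mouse. Stroma-like nuclei gave 5.19% and 6.1%, leukocyte-like nuclei 5.26% and 5.36%, and distal-like nuclei 7.2% and 1.98%. No cycling nucleus was seen among the 18 and 12 podocyte-like nuclei, which allows shares of up to 16.7% and 25% by the limit of 3 counts, and up to 18.5% and 26.5% by the exact binomial interval, for counting error alone. The day 28 cycling nuclei were PT-like in 27 of 41 cases.

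**Figure D2:**
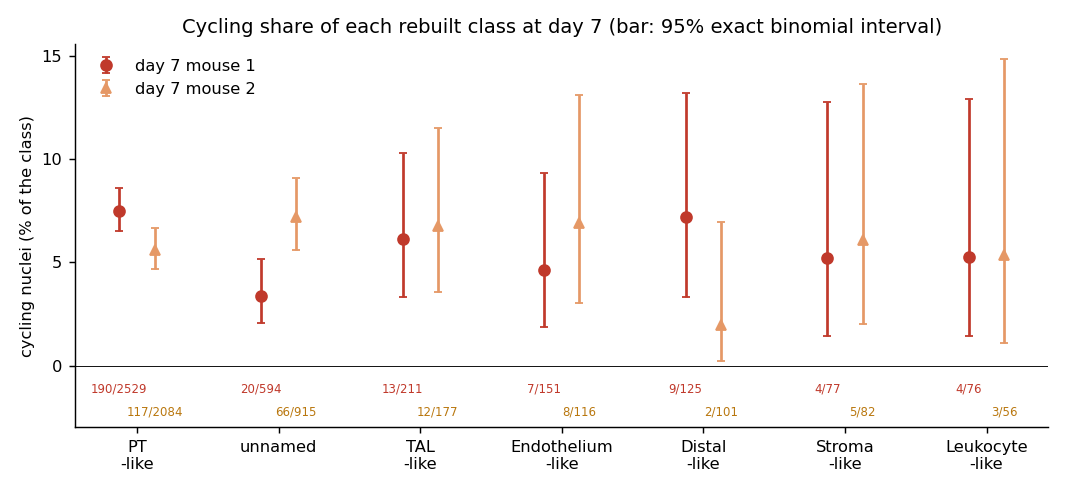
Percent of each class that was cycling in the 2 day 7 mice, with 95% exact binomial intervals and, under each point, cycling nuclei over all nuclei of the class. PT-like nuclei gave 7.51% and 5.61% and TAL-like nuclei 6.16% and 6.78%; intervals of the smaller classes are wide.

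PT-like nuclei formed 76.6%, 54.7%, 71.4%, 58.3% and 68.2% of the cycling nuclei in day 7 mice 1 and 2 and day 28 mice 1, 2 and 3. The share among the other nuclei of the same mice was 65%, 58.3%, 66.9%, 58.8% and 42.9%. It was higher in cycling nuclei in 3 of 5 mice, by 7.45 percentage points on average (two-sided exact sign-flip permutation p = 0.25, n = 5, where 2 of 32 sign patterns is the smallest possible). Of the cycling nuclei of day 7 mouse 2, 30.8% lay in clusters without a name, against 8.06% in mouse 1. Cluster c2, whose injured PT score fell under the naming minimum, held 20 of these 20 nuclei in mouse 1 and 64 of 66 in mouse 2. With unnamed clusters counted under their highest score, the difference was 3.45 percentage points.

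Endothelium-like cycling nuclei were deeper than the other nuclei of their class. There were 7 in day 7 mouse 1 and 8 in day 7 mouse 2, with a median of 6423 and 4480.5 UMIs against 1618 and 1289 in the other endothelium-like nuclei. Havcr1, a tubule gene, had a UMI in 6 of the 7 and 7 of the 8. It was also found in 47.2% and 41.7% of the other endothelium-like nuclei. The class pools 2 clusters. Cluster c25, with PT and injured PT scores of 0.49 and 0.49, held 5 and 8 of the cycling nuclei. The median depth over all nuclei of c25 was 3711 and 2556 UMIs. Cluster c33, with scores of -2.49 and -1.58, held 2 and 0, and the median over all its nuclei was 1201 and 671 UMIs. Havcr1 was not compared within each cluster. After thinning, the detected share was 28.6% of the cycling against 36.2% of the other endothelium-like nuclei in mouse 1, and 62.5% against 35.8% in mouse 2. Its level was 254 against 797 CPM in mouse 1 and 840 against 630 CPM in mouse 2, so the mice differed in direction on both measures. The part of doublets in these 15 nuclei was not tested.

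Within the proximal tubule, the cycling share ranged widely between clusters. The highest share lay in cluster c8, led by Cdh13, Hs3st5, Ccbe1, Hmga2 and Cd44: 12% of 731 nuclei in day 7 mouse 1 and 10.3% of 426 in mouse 2 were cycling. In cluster c6, led by Atf3, Cxcl2, Pdgfb and Vcam1, the shares were 3.7% of 433 and 3.72% of 242. Median depth was near equal in the pair, at 4338 and 4303 UMIs in mouse 1 and 2842.5 and 2555.5 in mouse 2. After thinning, c8 stood at 4.9% and 5.97% and c6 at 0.948% and 0.84%, so the order was the same in both mice on both measures. Clusters that scored as PT rather than injured PT varied. Cluster c16 had 1.42% of 211 and 1.05% of 191. The smaller c32 had 8.41% of 107 and 3.75% of 80, at median depths of 8253 and 4999 UMIs, and 2.8% and 2.5% after thinning. Cluster c24 had 0% of 98 and 4% of 75. In the PT-like cluster c4, 8.25% and 5.89% were cycling. Outside the PT-like class, the unnamed cluster c2 differed between the mice, with 3.7% in mouse 1 and 7.67% in mouse 2. The rule gene Cenpf was among the 10 leading genes of both c4 and c2. Clusters were built from the expression of the same nuclei, so these shares are a description with no test.

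**Figure D3:**
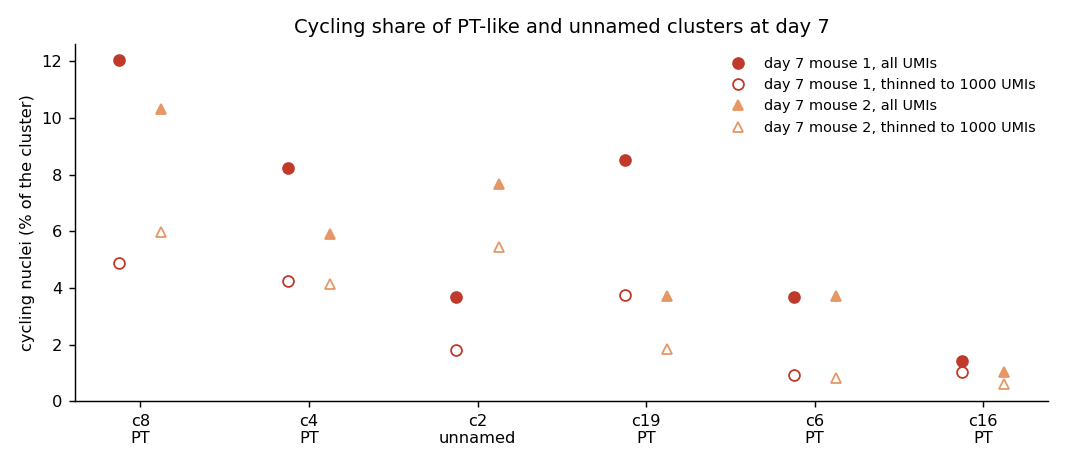
Percent of cycling nuclei in the PT-like and unnamed clusters with 200 or more day 7 nuclei, for both day 7 mice, with all UMIs (filled) and thinned to 1000 UMIs a nucleus (open). Cluster c8 is highest in both mice with all UMIs (12% and 10.3%), and c6 and c16 stay at or under 3.72%.

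Detection of the injury marker Havcr1, with or without Vcam1, went with a higher cycling share of PT-like nuclei when all UMIs were used. The order changed when the rule gene counts were thinned. Marker states were set on all UMIs in either case. Median depth was 4800 and 2732 UMIs with both markers and 1599 and 1360 with neither in day 7 mice 1 and 2. The thinned shares are therefore no comparison of the states at equal depth. With all UMIs, 10.2% and 6.46% of the PT-like nuclei with both markers were cycling in day 7 mice 1 and 2, against 4.8% and 4.69% of those with neither. Nuclei with Havcr1 alone gave 7.08% and 5.8%. Those with Vcam1 alone gave 6.36% of 110 and 4.35% of 92, above the nuclei with neither in mouse 1 and below them in mouse 2. After thinning to 1000 UMIs the shares were 2.76% and 3.28% with both, 3.6% and 3.63% with Havcr1 alone, 3.23% and 2.9% with Vcam1 alone, and 2.33% and 3.02% with neither. In both mice the highest share lay with both markers on all UMIs and with Havcr1 alone after thinning. Havcr1 itself had a UMI in 57.8% and 53.3% of the thinned cycling PT-like nuclei and in 56.5% and 56.6% of the thinned others, beside 36.2% and 35.8% of the thinned endothelium-like nuclei outside the rule.

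For single genes, UMIs of cycling and of other PT-like nuclei were summed in each mouse with at least 10 cycling PT-like nuclei (190 and 117 in day 7 mice 1 and 2, 15 in day 28 mouse 3) and compared within mice. Of 10593 genes tested after the 8 rule genes were taken out, 565 rose (5.33%) and 496 fell (4.68%) in cycling nuclei at a Benjamini-Hochberg adjusted p under 0.05 by edgeR's quasi-likelihood test. The median log2 fold change over all genes was -0.01. Without the block for the mouse, 221 rose and 42 fell, and DESeq2 called 282 and 107. Leaving out day 7 mouse 1 gave 271 and 120, and leaving out day 7 mouse 2 gave 324 and 176.

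Mitosis genes outside the rule were higher in cycling PT-like nuclei. With no filter on low counts, 79 of the 80 listed rose, with a median log2 fold change of 4.3. The filter on low counts kept 66, of which 66 rose (median 4.12), but a gene can pass it through the cycling arm alone, so that count is a description only. Knl1, the kinetochore scaffold, stood at 145, 204 and 227 CPM in the cycling PT-like nuclei of day 7 mouse 1, day 7 mouse 2 and day 28 mouse 3. In the other PT-like nuclei it stood at 1.61, 2.65 and 1.57 CPM. No level of the 2 arms overlapped, and the fitted log2 fold change was 6.48 (SE 0.27, edgeR adjusted p = 1.01e-29). Hmmr, a spindle protein, reached 51, 53.6 and 34.1 CPM against 0.461, 0.662 and 0 CPM. The spindle motor Kif15 reached 141, 161 and 216 CPM against 3.57, 3.09 and 0.786 CPM (log2 5.72, SE 0.28, edgeR adjusted p = 4.46e-26). Diaph3, a formin of the cleavage furrow, rose by a log2 fold change of 3.94 and the spindle assembly factor Tpx2 by 4.89. The 10 largest rises that were shared by the 3 mice were Ankle1, Hmmr, Ckap2l, Knl1, Ska1, Neil3, Troap, Iqgap3, Nuf2 and Esco2, at log2 fold changes of 5.87 to 6.87. Among these Neil3, a DNA glycosylase, and Esco2, a cohesin acetyltransferase, act on DNA, and Nuf2 and Ska1 at the kinetochore.

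With no filter on low counts, 41 of 46 replication genes rose, with a median log2 fold change of 2.38. Of the 39 that passed the filter 38 rose (median 2.51), and Mcm7, a helicase subunit, was the exception at 0.75. Pola1, the catalytic subunit of the polymerase that starts each strand, stood at 329, 339 and 307 CPM in cycling nuclei and at 101, 105 and 72 CPM in the others of the 3 mice. It was thus well expressed outside the cycling nuclei, and its log2 fold change was 1.76 (SE 0.13, edgeR adjusted p = 5.32e-17). Clspn, the replication checkpoint protein claspin, reached 59.5, 66.4 and 102 CPM against 3.11, 2.43 and 0.786 CPM. The repair genes Brca1 and Polq rose by log2 fold changes of 3.22 and 4.14. With the 2 day 7 mice alone, 79 of the 79 mitosis genes and 41 of the 43 replication genes that passed the filter rose. A gene can pass that filter through the cycling arm alone, so the filtered counts of both lists are a description only.

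**Figure D4:**
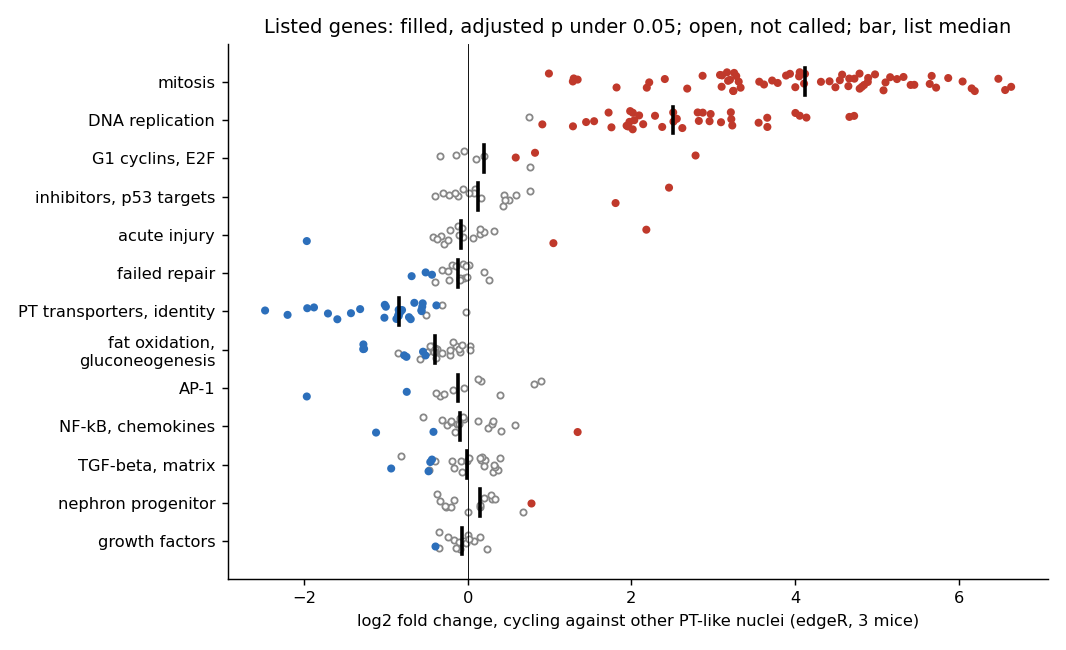
Log2 fold change of each listed gene between cycling and other PT-like nuclei (edgeR, 3 mice), for genes that passed the filter on low counts, with called genes filled and list medians as bars. The mitosis and replication lists have medians of 4.12 and 2.51, the PT list -0.84, and the acute injury and failed repair lists -0.09 and -0.12.

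The promoters of genes that rise together in mitosis are known to share 2 short elements, the cell cycle homology element TTTGAA and the CCAAT box, which the MuvB complexes and NF-Y bind. Both were sought on both strands in windows of 300 bases around the RefSeq start (250 before it and 50 after; build GRCm38.p6). TTTGAA was present in 42 of the 64 mitosis genes that matched a window (65.6%), in 6 of 37 replication genes (16.2%) and in 18.1% of all 27025 windows. CCAAT was present in 44 of 64 mitosis genes (68.8%), 24 of 37 replication genes (64.9%) and 37.9% of all windows. An E2F-type element, TTTCCCGC or TTTGGCGC, was present in 11 of 37 replication genes (29.7%), 7 of 64 mitosis genes (10.9%) and 1.63% of all windows. Of the 7 rule genes with a window, 5 held TTTGAA and 6 held CCAAT. Of 24 PT identity genes with a window, 7 held TTTGAA (29.2%, above the share of all windows) and 6 held CCAAT (25%, below it). The windows of 3 rule genes and of Hmmr are printed as examples that hold the 2 elements together. Not every gene that rose did, since Knl1 and Kif15 held TTTGAA without CCAAT, and the mitosis gene Nusap1 held neither. The window of the transporter gene Slc34a1, which fell in cycling nuclei, is printed as 1 example that holds neither. Capitals mark TTTGAA and CCAAT or their reverse complements TTCAAA and ATTGG, and the sequences run 5′ to 3′ on the gene's strand. These matches are letters in a window and were not tested for binding.
Top2a, chr11:99024140-99024439, minus strand: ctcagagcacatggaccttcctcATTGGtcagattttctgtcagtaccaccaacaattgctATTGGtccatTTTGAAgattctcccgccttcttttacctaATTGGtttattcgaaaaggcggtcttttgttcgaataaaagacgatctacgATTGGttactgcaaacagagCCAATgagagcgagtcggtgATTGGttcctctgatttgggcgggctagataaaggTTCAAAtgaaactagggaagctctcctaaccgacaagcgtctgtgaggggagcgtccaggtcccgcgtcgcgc
Cenpf, chr1:189688037-189688336, minus strand: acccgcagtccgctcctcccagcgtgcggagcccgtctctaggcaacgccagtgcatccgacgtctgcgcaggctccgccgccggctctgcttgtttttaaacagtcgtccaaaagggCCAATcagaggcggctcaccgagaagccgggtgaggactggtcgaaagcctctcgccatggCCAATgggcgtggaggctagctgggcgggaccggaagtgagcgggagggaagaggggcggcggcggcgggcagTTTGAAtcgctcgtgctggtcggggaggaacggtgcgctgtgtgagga
Kif11, chr19:37376132-37376431, plus strand: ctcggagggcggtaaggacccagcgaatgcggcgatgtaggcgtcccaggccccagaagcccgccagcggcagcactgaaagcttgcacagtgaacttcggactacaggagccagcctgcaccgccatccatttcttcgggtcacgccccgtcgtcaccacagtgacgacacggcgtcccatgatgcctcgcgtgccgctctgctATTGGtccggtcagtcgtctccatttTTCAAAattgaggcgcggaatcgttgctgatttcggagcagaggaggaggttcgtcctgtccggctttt
Hmmr, chr11:40733388-40733687, minus strand: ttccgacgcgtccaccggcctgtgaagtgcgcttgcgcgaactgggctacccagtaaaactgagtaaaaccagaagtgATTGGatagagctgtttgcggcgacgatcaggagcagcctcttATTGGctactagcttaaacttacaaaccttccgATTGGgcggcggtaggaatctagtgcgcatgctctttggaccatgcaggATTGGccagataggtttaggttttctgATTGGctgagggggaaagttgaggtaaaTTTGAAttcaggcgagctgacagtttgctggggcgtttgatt
Slc34a1, chr13:55399398-55399697, plus strand: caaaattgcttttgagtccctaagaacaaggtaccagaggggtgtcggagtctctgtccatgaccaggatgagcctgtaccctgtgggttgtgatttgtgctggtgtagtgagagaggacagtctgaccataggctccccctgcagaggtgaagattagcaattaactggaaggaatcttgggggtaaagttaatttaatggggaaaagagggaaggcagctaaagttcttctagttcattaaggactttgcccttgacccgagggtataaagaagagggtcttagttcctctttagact

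Genes that act before replication changed less. Of 9 G1 cyclin, kinase and E2F genes tested, 3 rose and none fell (33.3% called, beside 10.0% of all genes tested). Ccnd1 (cyclin D1) stood at 73.3, 151 and 22.7 CPM in the cycling nuclei of day 7 mouse 1, day 7 mouse 2 and day 28 mouse 3, against 56.7, 53.6 and 27.1 CPM in the others. It was higher in both day 7 mice and lower in day 28 mouse 3, with a log2 fold change of 0.82 (SE 0.21, edgeR adjusted p = 0.00372). The transcription factors E2f2 and E2f3 rose by 2.78 and 0.59, while Ccnd2, Cdk4, Cdk6, Cdk2 and Myc did not pass the test. Among 18 cell cycle inhibitor and p53 target genes, the INK4 inhibitor Cdkn2c and the pocket protein Rbl1 rose by log2 fold changes of 2.46 and 1.81. The share called in this list, 11.1%, was near the 10.0% of all genes tested. Cdkn1a, the p21 inhibitor that p53 induces, had a log2 difference of 0.46 (SE 0.39, edgeR adjusted p = 0.584). It rested on 26 UMIs in cycling nuclei, at 18.1, 23 and 0 CPM against 12.2, 16.8 and 5.9 CPM.

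Cycling PT-like nuclei had less of the transporter programme that defines the segment. Of 30 PT identity genes 27 fell and none rose (90% called, beside 10.0% of all genes tested), with a median log2 fold change of -0.84. Slc34a1, the brush-border sodium-phosphate transporter, stood at 155, 232 and 375 CPM in the cycling nuclei of day 7 mouse 1, day 7 mouse 2 and day 28 mouse 3. The other PT-like nuclei held 555, 559 and 1669 CPM, so every mouse was lower in the cycling arm (log2 -1.71, SE 0.14, edgeR adjusted p = 1.24e-15). Slc5a12, a sodium-lactate cotransporter, stood at 46.8, 23 and 136 CPM against 229, 232 and 582 CPM (log2 -2.48, SE 0.18, edgeR adjusted p = 2.15e-17). The glucose transporter Slc5a2 (SGLT2) fell by 2.2 on the log2 scale and the organic anion carrier Slc22a8 by 1.96. The endocytic receptors Lrp2 and Cubn fell by 0.7 and 0.82, and Hnf4a, the factor that maintains the segment, fell by 0.57. Slc22a6 and Aqp1 were among those that did not pass. How many of the 30 genes were called depended on the fit: 4 without the block for the mouse, 12 with DESeq2, 12 without day 7 mouse 1, 16 without day 7 mouse 2 and 17 with cell cycle genes kept in the clustering. The list's median lay between -0.97 and -0.65 in every alternative run.

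Cluster membership moved together with the PT genes, and its part in their fall was not tested across mice. Within the PT-like cluster c8 alone, the 30 PT genes summed to 3077 CPM in cycling and 4068 CPM in other nuclei of day 7 mouse 1, and to 3697 and 4614 CPM in mouse 2. In cluster c4 the sums were 5936 and 6831 CPM in mouse 1 and 6960 and 7074 CPM in mouse 2, and in the unnamed cluster c2, which did not enter the PT-like fit, they were 11532 and 13728 CPM, and 10763 and 13444 CPM. The sum was lower in cycling nuclei in all 6 of these pairs, and by the least in c4 of mouse 2. No such sum is given over all PT-like nuclei, so the part of the fall left within clusters was not measured. These 3 clusters were picked because each held at least 40 cycling nuclei, and the pairs carry no test.

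Fat oxidation and gluconeogenesis, the energy programmes of the proximal tubule, followed in part. Of 28 genes tested 7 fell and none rose (25% called, beside 10.0% of all genes tested), and the median was -0.4. Fbp1 (fructose-1,6-bisphosphatase) stood at 27.6, 15.3 and 45.5 CPM in cycling nuclei against 54.1, 45.7 and 186 CPM, lower in every mouse (log2 -1.28, SE 0.25, edgeR adjusted p = 0.000119). Pck1 and G6pc, which act with it in glucose synthesis, fell by 1.27 and 1.28 on the log2 scale. Ppara and Ppargc1a, the transcriptional regulators of fat oxidation, fell by 0.78 and 0.52. Neither Cpt1a nor Hadha passed the test. Without the block for the mouse none of the 28 was called, 2 were with DESeq2, and 3 with cell cycle genes kept in the clustering.

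Most injury and repair genes did not pass the test. Of 18 acute injury genes tested, 2 rose and 1 fell (median -0.09). Of 18 failed repair genes 3 fell and none rose (median -0.12), and 16.7% had a fold change above 0, beside 48.2% of all genes tested. In each of these lists 16.7% of the genes tested were called, beside 10.0% of all genes. Within single clusters, the failed repair genes summed to 17309 CPM in cycling and 20358 CPM in other nuclei of c8 in day 7 mouse 1, and to 16056 and 21424 CPM in mouse 2. In c4 the sums were 11930 and 16340 CPM in mouse 1 and 13132 and 17353 CPM in mouse 2, and in c2 they were 8464 and 10723 CPM, and 6932 and 10883 CPM. They were lower in cycling nuclei in all 6 pairs, whereas the acute injury genes were lower in 4 of the 6, and these pairs carry no test. Havcr1 stood at 1277, 1144 and 148 CPM in cycling and at 1265, 1106 and 275 CPM in other PT-like nuclei (log2 -0.06, SE 0.13, edgeR adjusted p = 0.884). Vcam1 stood at 322, 240 and 751 CPM against 300, 287 and 697 CPM (log2 -0.01, SE 0.13, edgeR adjusted p = 0.988). Krt20, whose locus drives the reporter by the allele's name, had 38 UMIs in cycling nuclei and a log2 difference of -0.22 (SE 0.31, edgeR adjusted p = 0.789). The intermediate filament gene Vim and the calcium-binding S100a6 rose by log2 fold changes of 2.18 and 1.05, being higher in both day 7 mice and not in day 28 mouse 3. Atf3, a stress factor, fell by 1.97, and the potassium channel partner Kcnip4, the growth factor Pdgfd and the scaffold Akap12 fell by 0.69, 0.44 and 0.51.

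**Figure D5:**
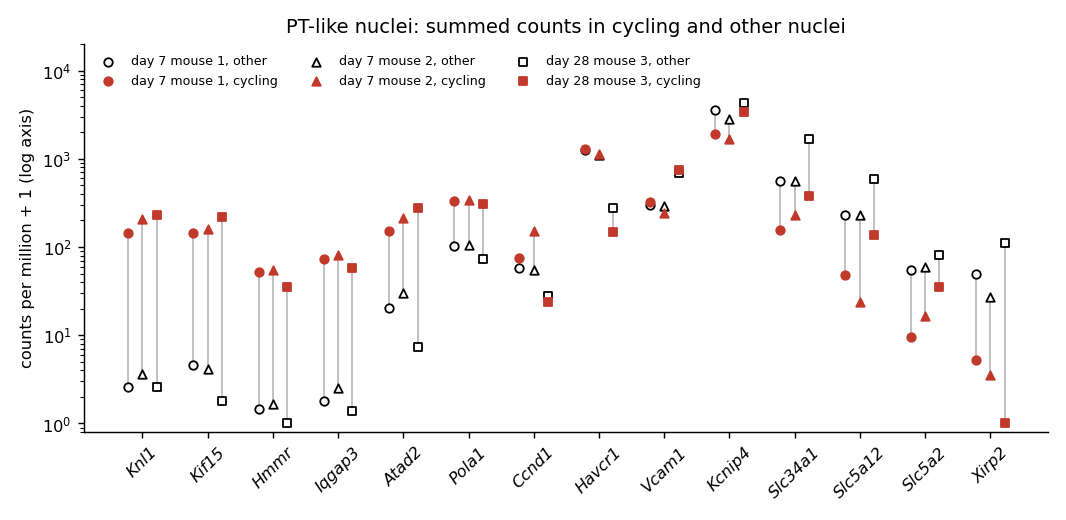
Summed CPM (plus 1, log axis) of 14 genes in cycling (red) and other (open) PT-like nuclei of the 3 mice with at least 10 cycling PT-like nuclei. Knl1 to Pola1 are higher in the cycling nuclei of each mouse, Slc34a1 to Xirp2 lower, and Havcr1 and Vcam1 lie close together at day 7.

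Few members of the signalling lists passed. Of 12 AP-1 and immediate early genes, Atf3 and Klf6 fell. Of 20 NF-kB target and chemokine genes, Cxcl10 rose while Birc3 and Cxcl16 fell. Cxcl10, an interferon-induced chemokine, stood at 26.6, 20.4 and 114 CPM in cycling nuclei and at 12, 9.93 and 27.5 CPM in the others, higher in every mouse (log2 1.34, SE 0.33, edgeR adjusted p = 0.00262). Of 23 TGF-beta and matrix genes the integrin subunits Itgb6 and Itgb8, the laminin chain Lama3 and Pdgfd fell. Sox11, a transcription factor of the developing nephron, rose by a log2 fold change of 0.77 as 1 of 15 progenitor genes tested. Lgr4, a receptor that amplifies Wnt signals, fell by 0.4 as 1 of 16 growth factor genes. The shares called in these 5 lists lay between 6.25% and 17.4%, beside 10.0% of all genes.

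The largest falls outside the lists were in genes of low level. Xirp2, an actin-binding repeat protein, stood at 4.25, 2.55 and 0 CPM in cycling and at 48, 26.3 and 109 CPM in other PT-like nuclei (log2 -3.69, SE 0.44, edgeR adjusted p = 1.05e-09). Angpt1 (angiopoietin 1), Clec2h and Ugt2b5 fell by 2.89, 2.69 and 2.63 on the log2 scale. Gm12962, mt-Cytb and Spp2 had no UMI in cycling nuclei of the 3 mice, so against a floor of 3 counts over the group they were at least 4.87-fold, 4.15-fold and 3.79-fold lower. Gm47882, Lrp4 and Mef2b rested on 1, 2 and 2 UMIs in cycling nuclei, and their ratios of other to cycling level were 10.9, 8.84 and 6.04. The 95% counting intervals of these ratios ran from 1.92, 2.41 and 1.64 upward. These bounds, ratios and intervals used UMIs pooled over the 3 mice without the pairing. Day 28 mouse 3 gave a larger part of the other arm than of the cycling arm, so they also carry the mix of mice.

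Markers of other cell types were detected in PT-like nuclei of both arms. The 14 distal markers gave the highest sums in cycling nuclei, at 391.8, 258 and 438 CPM against 263, 294 and 319 CPM in the others, higher in cycling nuclei in day 7 mouse 1 and day 28 mouse 3. Of these 14, 8, 5 and 3 were detected in cycling nuclei, Pvalb, Trpv5 and Aqp2 were at 0 there in every mouse, and none of the 4 tested passed. The 10 endothelial markers summed to 106, 55.2 and 36.5 CPM in cycling nuclei and to 51, 61.2 and 37 CPM in the others, and 4, 3 and 2 of the 10 were detected in cycling nuclei. Ptprb, one of them, rose by a log2 fold change of 1.1. The 12 leukocyte markers gave 52.2, 52.6 and 109.5 CPM against 56.4, 65.7 and 78.6 CPM, and the 8 TAL markers 170, 252 and 353 CPM against 337, 393 and 230 CPM. Only Cldn10 among the TAL markers passed, and it fell by 0.77. The part of nuclei of mixed type in the results above was not tested.

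Over all classes together, 10761 genes were tested in the 5 IRI mice, and 476 rose (4.42%) and 402 fell (3.74%) in cycling nuclei by edgeR's quasi-likelihood test. With no filter on low counts, 80 of 80 mitosis and 43 of 46 replication genes rose, and 18 of 30 PT identity genes fell. The filter kept 35 mitosis and 32 replication genes, and 17 of the 30 PT identity genes fell with it. Beside Xirp2 and Ugt2b5, the largest falls included Slc26a4 of the intercalated cell and Slc12a3 of the distal convoluted tubule. Of the 8 distal markers tested Slc12a3 was the 1 that fell, and the median of the 8 was 0.04. Of the intercalated, podocyte and TAL markers 2 of 4, 2 of 4 and 3 of 6 fell. Slc12a3, the thiazide-sensitive cotransporter, had a log2 fold change of -2.1 (SE 0.2, edgeR adjusted p = 5.02e-23), and Slc26a4 (pendrin) one of -2.92 on 8 UMIs in cycling nuclei. Ptpro, a podocyte phosphatase, fell by 2.39. Here a lower level can follow from fewer nuclei of a segment as well as from less RNA per nucleus, which cannot be told apart in these sums. Without day 28 mouse 1, whose Mki67 counts stood apart, 605 genes rose and 539 fell, and with the day 7 mice alone 846 and 733.

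Whether cycling PT-like nuclei differed from their neighbours in another way at day 28 could be asked only through the 15 nuclei of day 28 mouse 3. Only 9 of these 15 held at least 2 different rule genes, which is under the minimum of 10 for the fit. The interaction of cycling with day called 15 genes as higher (0.142% of 10593) and 16 as lower (0.151%) at day 28 by edgeR's quasi-likelihood test, with 1 residual degree of freedom. Cd44, the hyaluronan receptor, stood at 941 and 758 CPM in the cycling nuclei of the 2 day 7 mice and at 91 CPM, or 8 UMIs, in that of day 28 mouse 3. Its levels in the other PT-like nuclei were 728, 849 and 462 CPM. Sorcs1, a sorting receptor, stood at 766, 579 and 1535 CPM in cycling and at 994, 972 and 798 CPM in other nuclei. No call was left without the block for the mouse or with cell cycle genes kept in the clustering, and DESeq2 called 2 and 1, so these values describe 1 mouse.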

How the data were processed

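Nuclear RNA of 9 mice was measured by single-nucleus RNA-seq. The authors deposited UMI counts, which are whole-number counts per gene and nucleus, in 1 table for IRI and 1 for control mice. Per the submitters' processing notes, Cell Ranger with STAR, Seurat and the mm10 build were involved; versions are not stated. Doublets were gated at the sorter per the labels' protocols, and no doublet caller was run. Library totals were 2409411 to 14641038 UMIs in IRI and 1833617 to 9622439 in control mice. Binomial intervals and the floor of 3 counts cover counting error only. Libraries of the IRI mice shared 13 cell barcodes, 2 of them carried by cycling nuclei.

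The cycling nuclei and the gene lists were chosen with earlier results of these data known. Nuclei of both tables (16939 shared genes, 2000 variable genes with rule, replication and mitosis genes left out, 30 components, 20 neighbours, Leiden resolution 2; scanpy 1.11.5) were clustered, and clusters were named from marker scores. The scoring rule and its minimum of 0.5 were set after the scores had been seen. Tests across genes used UMI sums per mouse and arm (cycling, other), with edgeR 4.0.16 (TMM, filterByExpr, quasi-likelihood F test, mouse as block, Benjamini-Hochberg over all genes tested). Both arms of a pair come from the same animal, which is why the mouse is a block. CPM in these comparisons are TMM-scaled; those of nuclei outside the fits are relative to all UMIs. The scripts were tested on simulated data. There the PT-like fit called 14.3% of 2-fold rises and 12.8% of 2-fold falls, and 91.8% and 75% of 4-fold ones. Most simulated 2-fold changes were thus missed. The interaction fit called 0% of 2-fold rises and 0% of 2-fold falls, and 4.35% of 4-fold rises and 0% of 4-fold falls. Named genes are the 10 largest rises and falls with adjusted p under 0.05, 1 sign in every mouse and at least 10 UMIs in the higher arm, the list members with the lowest adjusted p, and Havcr1, Vcam1, Krt20, Cdkn1a and Slc34a1; Slc22a8, Lrp2, Cubn, Hnf4a, Mcm7, Ptprb and the members named as not passing were added after their values were seen. Counting by strand is not stated, so genes that overlap another on the opposite strand (among those named, Ckap2l, Nusap1, Slc5a2, Xirp2, Angpt1, Lama3, Cxcl10, Cxcl16, Vcam1, Kcnip4, Pdgfd, Sorcs1, Rfc2, B4galnt3, Fgf1, Bcat1 and Gm17268) may hold reads of both. A few genes are not reported here. Alternatives were rule threshold, rule genes, depth, thinning, DESeq2 1.42.0, no filter, no block, other clusterings and leaving out each mouse.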

Additional observations from a re-analysis of the deposited data

Results flagged for a closer look

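The interaction of cycling with day in PT-like nuclei called 15 genes as higher and 16 as lower at day 28, by edgeR's quasi-likelihood test of the difference itself, with 15 cycling nuclei of 1 mouse at day 28. Among the called genes that the naming rule gave, with more than 3 UMIs in every sum, the log2 interaction was positive for Rfc2 (2.53), Atad2 (2.51), Adgrg1 (2.13), Ankrd1 (1.91), Ugt2b37 (1.79), Pdgfb (1.62), B4galnt3 (1.49), Sorcs1 (1.48), Cldn10 (1.45), Gpc6 (1.33) and Slc13a1 (1.25). It was negative for Gm17268 (-3.70), Cd44 (-2.48), Fgf1 (-2.08) and Cyp4b1 (-1.76). Rfc2 and Atad2 act in replication, Cd44 and Pdgfb are injury and repair genes, and Slc13a1 and Cyp4b1 are PT identity genes. Bcat1 and Usp12 had no UMI in the cycling nuclei of day 28 mouse 3, where their fitted folds are no bound.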

How the results depend on the processing

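The difference in cycling share between day 7 and day 28 was positive under every alternative run, from 2.93 to 5.9 percentage points, and on summed CPM of the rule genes it was 130. Leaving out single mice gave 5.21 to 5.87 percentage points. The difference between IRI and control mice ran from 1.37 to 2.86 percentage points, was 67.6 on summed CPM, and was 1.80 to 3.33 when single mice were left out. None of the tests of these shares passed 0.05 in any setting. The PT-like share differed by 2.86 to 12.7 percentage points, and by 3.00 to 10.2 without single mice.

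Over all classes, the number of genes that rose (476) was 226 with DESeq2, 159 with no replicate block and 846 with the day 7 mice alone, an alternative chosen after seeing the data, and the number that fell (402) was 96, 18 and 733. Leaving out single mice gave 216 to 605 and 93 to 539. In PT-like nuclei the number that rose (565) was 282 with DESeq2 and 221 with no replicate block, and the number that fell (496) was 107 and 42. Leaving out single mice gave 271 to 728 and 120 to 642. Of the genes that rose, 221 of the 221 called without the block were among the 565. Of the 67 genes that the naming rule gave in PT-like nuclei, 32 lost their call with no replicate block, 25 with DESeq2, 23 without day 7 mouse 1 and 17 without day 7 mouse 2, and none changed sign. The interaction's 15 and 16 calls became 2 and 1 with DESeq2, 0 and 0 with no replicate block, 0 and 0 with cell cycle genes kept in the clustering, and 0 and 1 with unnamed clusters counted by highest score. Ugt2b37 reversed to -0.073 with cell cycle genes kept. The interaction without single mice could not be fitted, since no residual degree of freedom or no day 28 mouse was left. The cause of these changes was not tested, beyond fewer mice and wider spread by construction. Nuclei with few UMIs limit detection: 48 cycling nuclei had 1000 UMIs or fewer.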
